A study of Homo sapiens with 4 samples.

Results

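The kinesin genes (KIF) and the centrosomal protein genes (CEP) were followed through the BRCA2 sites of the hTert-HME1 cell line, human mammary epithelium immortalised with telomerase. Members were all rows of the site table whose gene symbol is KIF or CEP followed by a number, with an optional letter and digit. This gave 46 symbols (23 KIF and 23 CEP) and 66 distinct sites, 36 of KIF and 30 of CEP genes, out of 15131 sites in all. One CEP symbol, CEP164P1, is a pseudogene. No site was shared by 2 members.

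The study set 2 BRCA2 ChIP libraries against 2 input chromatin libraries, all from log-phase cells of this 1 line, crosslinked with formaldehyde. The ChIP group was precipitated with an antibody to BRCA2, and the input group is chromatin before precipitation. Whether the libraries of a group were grown as separate cultures is not stated, so the spread behind the authors' FDR may be a technical one. Every level, fold and FDR below comes from the authors' deposited table, which holds group means on a log2 scale and no value per library, so that no spread between replicates can be given and the depth of each library is unknown. No control antibody was analysed here, so at every site below, BRCA2 binding cannot be told apart from pull-down that does not depend on BRCA2. The table holds only sites with an FDR of up to 0.05, so a difference between ChIP and input at each member's site is a condition of being listed and not a finding.

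Kinesins are motor proteins that use ATP to walk along microtubules or to take them apart. Some build and drive the mitotic spindle and the final cut of cytokinesis, and others carry vesicles, organelles or ciliary cargo. CEP proteins form and surround the centrioles, which organise spindle poles and template the cilium. Genes of the mitotic machinery are switched on late in the cell cycle through promoter elements such as the CHR and CCAAT boxes, and many replication and centriole genes through E2F sites. The BRCA2 protein is best known for its part in repairing broken DNA by homologous recombination, and has also been described at centrosomes and at the midbody, where it contacts the product of CEP55.

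The promoters of 6 members are shown because a site lay over or beside the listed start of each, and because they hold the strongest start site of all members (CEP63), the CEP gene of the midbody (CEP55), a CEP gene with sites on both sides of its start (CEP192) and 3 mitotic kinesins. They were chosen after their values were seen. The sequences are RefSeq promoters of GRCh38.p14, 250 bases before and 50 after the annotated start, in the direction of the gene. The sites are on hg19 and were not placed on them. Capitals mark the cell cycle homology region or CHR (TTTGAA, and as its rarer variant TTCGAA), the NF-Y box (CCAAT) and an E2F box (GCGGGAA) on either strand, a match on the other strand being shown as its reverse complement. CEP63 has 2 annotated starts, and both promoters are given. KIF11 lies at chr10:92592880-92593179 (plus strand), KIF18A at chr11:28108107-28108406 (minus), KIF23 at chr15:69414099-69414398 (plus), CEP55 at chr10:93496362-93496661 (plus), CEP63 at chr3:134485474-134485773 and chr3:134485807-134486106 (plus), and CEP192 at chr18:12991112-12991411 (plus).
KIF11: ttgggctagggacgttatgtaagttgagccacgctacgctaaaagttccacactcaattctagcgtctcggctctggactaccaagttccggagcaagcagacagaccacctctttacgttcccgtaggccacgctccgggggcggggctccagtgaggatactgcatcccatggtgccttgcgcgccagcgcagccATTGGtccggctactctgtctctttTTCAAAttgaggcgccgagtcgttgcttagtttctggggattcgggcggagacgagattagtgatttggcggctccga
KIF18A: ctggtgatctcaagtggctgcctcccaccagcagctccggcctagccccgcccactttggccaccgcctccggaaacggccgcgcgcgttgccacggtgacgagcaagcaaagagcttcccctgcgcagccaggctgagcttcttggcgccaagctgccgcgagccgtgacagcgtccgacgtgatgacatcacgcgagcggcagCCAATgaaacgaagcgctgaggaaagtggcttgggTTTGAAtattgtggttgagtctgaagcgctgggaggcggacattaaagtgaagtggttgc
KIF23: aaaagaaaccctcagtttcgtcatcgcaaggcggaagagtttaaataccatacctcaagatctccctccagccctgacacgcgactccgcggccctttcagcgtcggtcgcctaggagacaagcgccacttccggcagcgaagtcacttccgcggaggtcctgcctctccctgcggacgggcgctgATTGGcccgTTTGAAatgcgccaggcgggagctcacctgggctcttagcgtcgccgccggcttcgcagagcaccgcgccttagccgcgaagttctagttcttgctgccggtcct
CEP55: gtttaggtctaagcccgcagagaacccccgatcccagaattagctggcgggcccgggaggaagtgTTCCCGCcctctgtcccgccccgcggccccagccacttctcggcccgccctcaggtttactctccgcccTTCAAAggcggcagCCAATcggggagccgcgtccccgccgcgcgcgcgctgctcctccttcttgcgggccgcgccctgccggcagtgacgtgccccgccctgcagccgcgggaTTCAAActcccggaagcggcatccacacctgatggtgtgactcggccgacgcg
CEP63, first start: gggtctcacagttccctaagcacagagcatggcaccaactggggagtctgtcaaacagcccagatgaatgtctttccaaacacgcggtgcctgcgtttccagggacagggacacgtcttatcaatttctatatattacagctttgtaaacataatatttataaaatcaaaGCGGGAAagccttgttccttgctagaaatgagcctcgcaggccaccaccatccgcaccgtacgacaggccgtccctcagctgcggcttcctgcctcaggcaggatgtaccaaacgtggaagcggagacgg
CEP63, second start: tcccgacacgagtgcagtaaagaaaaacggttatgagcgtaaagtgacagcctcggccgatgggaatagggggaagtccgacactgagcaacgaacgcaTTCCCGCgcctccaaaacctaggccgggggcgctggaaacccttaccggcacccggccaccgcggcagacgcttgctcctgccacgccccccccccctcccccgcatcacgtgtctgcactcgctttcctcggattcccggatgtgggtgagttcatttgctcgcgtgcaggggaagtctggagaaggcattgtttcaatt
CEP192: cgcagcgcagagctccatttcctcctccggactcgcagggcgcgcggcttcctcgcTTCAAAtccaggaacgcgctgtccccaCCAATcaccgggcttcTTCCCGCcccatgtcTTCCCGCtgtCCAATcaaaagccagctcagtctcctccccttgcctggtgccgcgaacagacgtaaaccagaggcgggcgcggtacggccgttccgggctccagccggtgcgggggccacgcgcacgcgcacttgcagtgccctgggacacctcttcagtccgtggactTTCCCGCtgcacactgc

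In the 3 kinesin promoters a CCAAT box and a CHR stood close together just before the start. In KIF11 the CCAAT box began at -53 and the CHR at -28, in KIF18A at -45 and -10, and in KIF23 at -64 and -55, counted from the annotated start. Not every mitotic kinesin with a start site held both. KIF18B and KIF20B did, and KIF22 held CCAAT with the variant TTCGAA. KIF15 held no CCAAT, KIF20A held no CHR, and no match was recorded for KIF2C. CEP55 held CHR letters at -116 and -3, a CCAAT box at -102 and an E2F box at -185. CEP192 held 6 matches and CEP63 a single E2F match in each of its promoters.

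Over the promoter table, 40 of the 46 members matched, with 54 promoters. Start sites were taken by listed symbol here, so CEP15 and CEP162, with start sites under older names, were not counted as having one. TTTGAA was held by 6 of the 14 matched KIF genes whose start had a site within 1 kb (KIF11, KIF15, KIF18A, KIF18B, KIF20B and KIF23) and by 4 of 19 other matched KIF genes. Among CEP genes it was held by 9 of 16 with such a site and by 5 of 17 others. Of all 15843 coding genes in the table, 15.8% held it. CCAAT was held by 9 of 14 KIF genes with a start site and 8 of 19 others, and by 7 of 16 CEP genes with one and 11 of 17 others, where the share of all coding genes was 42.1%. By this grouping CCAAT was less frequent among CEP genes with a start site than among the others, where CEP162 was one of its holders. GCGGGAA was held by none of those 14 KIF genes and 3 of 19 others. Among CEP genes it was held by 5 of those 16 (CEP19, CEP55, CEP63, CEP85 and CEP192) and 4 of 17 others, against 10.5% of all coding genes. TTCGAA was held by KIF22 alone among these members with a start site, and by 2.11% of coding genes. These letter matches are descriptions of the sequence, and no test was made of them.

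Both families had sites at more of their genes than coding genes at large. Of 39 KIF coding genes in the RefSeq table, 23 (59.0%) had a site in the authors' deposited table, where 44.2% of all 20056 coding genes had one. Of 38 CEP coding genes, 22 (57.9%) had a site by symbol and 25 (65.8%) when matched also by Entrez ID, as all coding genes were. The extra 3 are listed under older names, CEP15 as C3orf14, CEP162 as KIAA1009 and CEP295 as KIAA1731. With a minimum log2 fold of 1 the KIF count was 15 of 39 (38.5%), nearer to the 34.7% of all coding genes. The CEP count at that fold, matched by Entrez ID, was 19 of 38. At an FDR under 0.01 the counts were 18 of 39 KIF genes (46.2%) and 20 of 38 CEP genes (52.6%), against 37.0% of all coding genes. By their medians, genes with a site were nearly as long as those without among KIF genes, and longer among CEP genes. The median length was 56378 bp for KIF genes with a site and 58995 bp for those without, and 68677 bp and 53322 bp for CEP genes. Over all coding genes it was 33421 bp and 17820 bp.

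The genes without a site included members known for both mitosis and transport. Among the 16 KIF genes without one were KIF4A, a chromosome-bound motor of the central spindle, KIF14, a kinesin of cytokinesis, and KIF5B, the ubiquitous conventional kinesin. The others were KIF1A, KIF1C, KIF2B, KIF3A, KIF4B, KIF5C, KIF19, KIF21A, KIF24, KIF25, KIF26A, KIF26B and KIF27. Among the CEP genes without one by symbol or Entrez ID were CEP152, which works with CEP63 at the base of new centrioles, CEP97, which caps them, and CEP164, a distal appendage protein. The others were CEP20, CEP43, CEP44, CEP78, CEP83, CEP126, CEP128, CEP131, CEP170 and CEP170B.

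Among the role groups, the mitotic kinesins had the largest share of genes with a site at the start, although the folds of these sites were low. Of the 11 genes, 9 (81.8%) had one at the start, meaning over it or within 1 kb, where 23.4% of coding genes had one. Those without any site were KIF4A and KIF14. The list of 11 was drawn up with earlier results known. It did not hold KIF2B and KIF4B, which had no site, or KIF2A, which had a start site. Among transport kinesins 9 of 15 had a site and 4 (26.7%) had one at the start. Centriole assembly CEP genes had sites at 6 of 9, with 5 at the start. Appendage, linker and cilium CEP genes had sites at 9 of 13, with 7 at the start. Among related genes, dynein and dynactin genes had sites at 8 of 18 (44.4%), with 7 at the start (38.9%), and centrosome genes with other names at 12 of 23 (52.2%), with 10 at the start (43.5%). Kinesin partners and C-type kinesins had sites at 5 of 10 and none at the start. Their largest log2 fold was 3.84, inside KLC2, a kinesin light chain, and the largest of the dynein list was 2.42 at NDE1, a dynein regulator. No difference between these groups was tested.

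**Figure D1:**
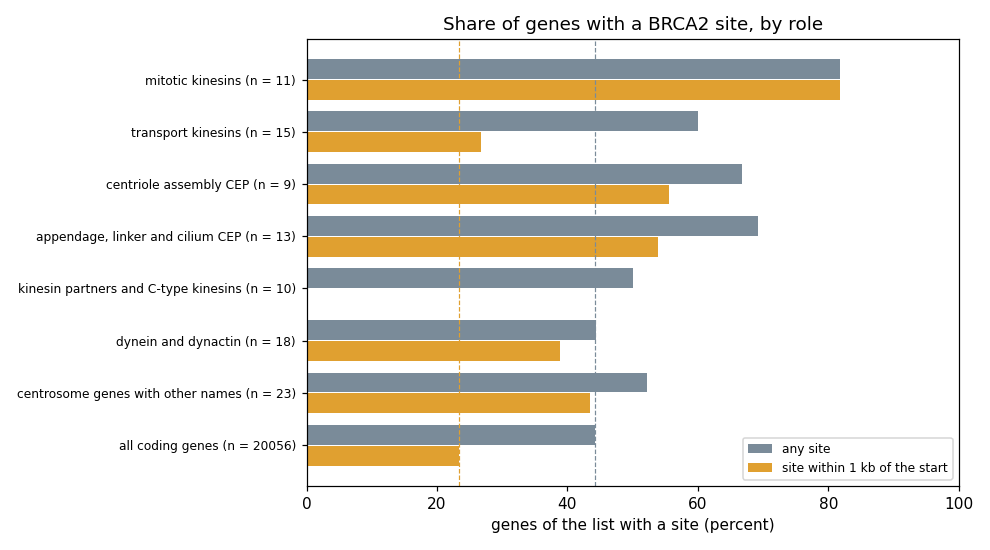
Share of the genes of each role group with any BRCA2 site (grey) and with a site within 1 kb of the start (orange), in percent. Dashed lines mark all coding genes at 44.2% and 23.4%; the mitotic kinesins reach 81.8% on both measures.

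The strongest kinesin sites were not at gene starts. In the authors' deposited table, KIF6, a kinesin needed for ependymal cilia in the mouse, had the 2 largest folds of its family. At chr6:39303702-39304201 the ChIP level was 8.53 and the input level 5.06, a log2 fold of 3.47 (11.1-fold) with an FDR of 6.72e-23. At chr6:39393607-39394106 the levels were 8.55 and 5.52, a log2 fold of 3.03 with an FDR of 1.4e-19. Both sites lay inside the gene, 389479 and 299574 bp from its listed start, and the first was 5936 bp from its end. Only 2.74% and 3.83% of all sites had a larger fold. Another KIF6 site, between them, had levels of 5.87 and 4.85 and a fold of 1.03, so the sites of this gene ranged widely. No other KIF site had a log2 fold of 2 or more, as 10.9% of all sites did.

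The next kinesin site belonged as much to a neighbouring gene. KIF22, a chromosome-binding kinesin, had a ChIP level of 7.12 and an input level of 5.17 at chr16:29816656-29817155, a log2 fold of 1.94 with an FDR of 3.7e-09. That site overlapped the end of KIF22 and lay 272 bp from the start of MAZ, a zinc finger transcription factor gene. The site beside the start of KIF22 itself, with levels of 6.61 and 5.39, had a fold of 1.22. KIF13A, an endosomal transport kinesin, had 3 sites inside the gene. The strongest, 25259 bp from the start, had levels of 7.41 and 5.48, a fold of 1.93 and an FDR of 4.92e-10, and the others had folds of 0.83 and 0.69.

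Among the mitotic kinesins, sites at the start had low folds. In the authors' deposited table their log2 folds at 9 start sites ran from 0.75 to 1.37, with a median of 0.99, against 1.27 over 4207 coding promoter sites. The ChIP level was not low, with a median of 6.71 against 6.65 over those promoter sites. The median input level was 5.73 against 5.38. KIF23, the motor of the centralspindlin complex in cytokinesis, had a ChIP level of 6.60 and an input level of 5.23 at chr15:69706278-69706777, a fold of 1.37 with an FDR of 0.000123. KIF15, which helps to keep spindle poles apart, had levels of 6.66 and 5.47 and a fold of 1.19. KIF18B, a plus-end motor of astral microtubules, had 6.80 and 5.65 and a fold of 1.15. The sites of KIF15 and KIF23 overlapped the start, and that of KIF18B lay 91 bp upstream.

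KIF20A, a kinesin of the central spindle, had a ChIP level of 6.84 and an input level of 5.85 over its start, a log2 fold of 0.99. KIF2C, a microtubule depolymerase at centromeres, had 6.77 and 5.96, a fold of 0.81 with an FDR of 0.0251. KIF20B, a cytokinesis kinesin, had 7.31 and 6.56, a fold of 0.75 with an FDR of 0.0256. The ChIP level of KIF20B was the highest of the KIF start sites, and its input level the highest of all member sites, so a high ChIP level here went with a low fold. KIF20B lies on chromosome 10, as does KIF11. The sites of that chromosome had a median input of 5.91, against 5.42 for all sites. The part of the input level in these folds was not tested.

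KIF11 and KIF18A each had a pair of sites near the start. KIF11, the kinesin that pushes spindle poles apart, had a site over its start with a ChIP level of 6.71 and an input level of 5.80 (log2 fold 0.92, FDR 0.00864). A second site, 787 bp farther out, had 6.80 and 5.92 (0.89, FDR 0.00556), so the pair was alike. KIF18A, which damps chromosome movement at the metaphase plate, had 6.59 and 5.73 over its start (0.86, FDR 0.01) and 6.31 and 5.11 at a site 1773 bp upstream (1.20, FDR 0.00151). The start site of KIF18A also overlapped the start of METTL15 on the other strand.

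Of the transport kinesins with a start site, KIF16B, a motor of early endosomes, was the strongest in the authors' deposited table. Its ChIP level was 6.46 and its input level 4.77 at chr20:16553892-16554391, a log2 fold of 1.69 with an FDR of 1.29e-05, and 2 more sites deep inside the gene had folds of 0.81 and 0.79. KIF13B had levels of 6.06 and 4.71 just upstream of its start, a fold of 1.36 with an FDR of 0.002, and a second site, 86237 bp inside, with 0.81. KIF1B, which moves mitochondria and synaptic vesicle precursors, had sites on both sides of its start. Upstream the levels were 6.17 and 5.12 (log2 fold 1.04), and inside, 509 bp from the start, 6.44 and 5.23 (1.22). KIF3B, of the heterotrimeric kinesin of cilia, had 6.04 and 5.04 over its start (0.99). The input levels of the start sites of this group had a median of 4.91, against 5.73 for the mitotic kinesins.

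The other kinesin sites were spread along and outside the genes. KIF12 had a log2 fold of 1.44 (ChIP 6.56, input 5.13) at a site 13726 bp upstream, and KIF7, a Hedgehog pathway regulator of the cilium, 1.04 at a site 7415 bp upstream. These were the 2 KIF sites outside the gene and over 5 kb from it. KIF2A, a microtubule depolymerase, had a fold of 1.12 upstream of its start. Its second site, 97671 bp inside, lay over the starts of DIMT1 and IPO11. That site and 1 of KIF13A had the smallest fold of the family, 0.69. KIF3C had 2 inside sites (0.93 and 0.92), KIF21B 1 (1.16), KIF17 1 (0.82) and KIF5A, the neuronal conventional kinesin, 1 (0.78). KIF9, a kinesin known from sperm tails and cilia, had 1.01 at 950 bp inside, at a site that also overlapped the start of KLHL18.

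**Figure D2:**
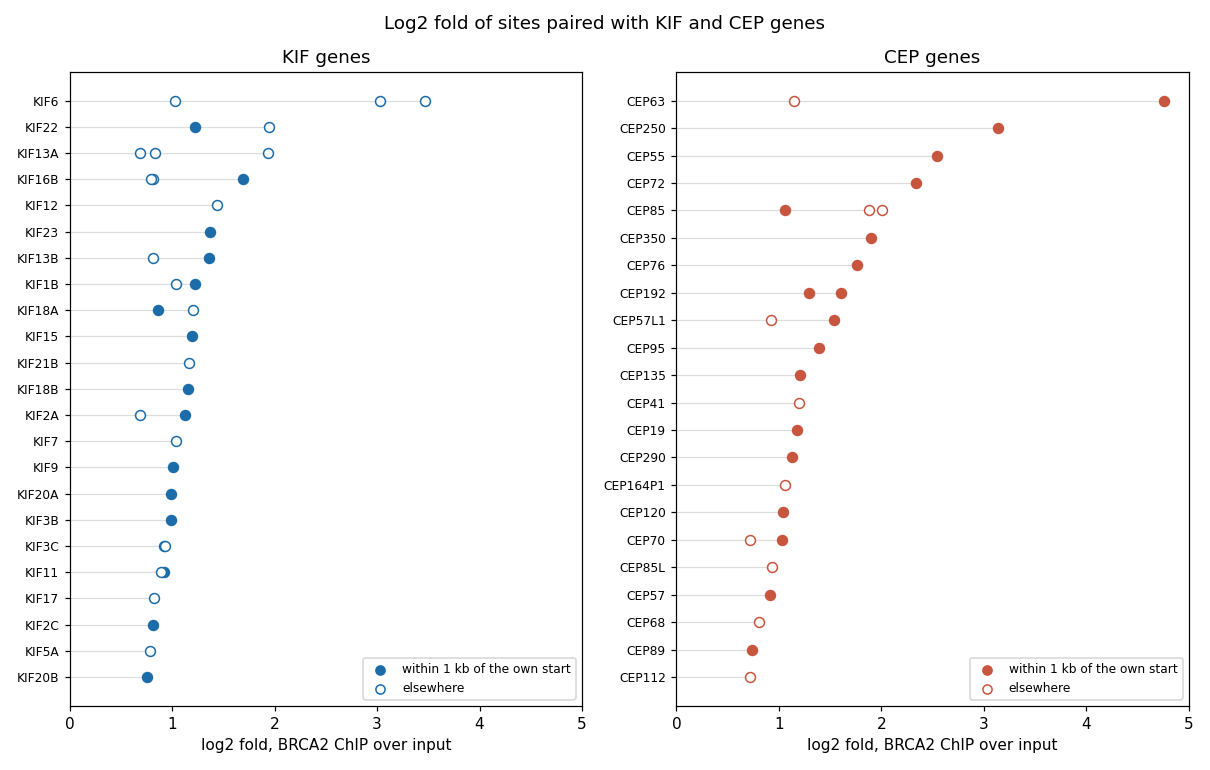
Log2 fold of BRCA2 ChIP over input at the sites of the KIF genes (left) and of the CEP genes named in the text (right), ordered by the strongest site. Filled points lie within 1 kb of the gene's own start. The leading KIF points, at 3.47 and 3.03 in KIF6, are open, while the leading CEP point, at 4.76 in CEP63, is filled.

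The strongest CEP sites were at gene starts. In the authors' deposited table, CEP63, a protein of centriole duplication, had the largest fold of all members. At chr3:134204460-134204959, over its start, the ChIP level was 10.29 and the input level 5.53, a log2 fold of 4.76 (27.1-fold) with an FDR of 1.37e-52. Only 1.27% of all sites had a larger fold. The same site lay inside ANAPC13, a subunit of the anaphase-promoting complex, and 599 bp at its nearer edge from the start of that gene on the other strand. A second CEP63 site, 14130 bp upstream by the listed distance, had levels of 6.68 and 5.53 and a fold of 1.15. The input levels of the pair were equal, so their difference in fold was a difference in ChIP level.

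CEP250, the linker that ties the 2 centrosomes of an interphase cell together, had a ChIP level of 8.84 and an input level of 5.69 at chr20:34042344-34042843. Its log2 fold was 3.14 (8.82-fold) with an FDR of 2.56e-21. The site ended 142 bp before the start of CEP250 and overlapped the listed start of GDF5, a growth factor gene on the other strand. CEP55, which recruits the machinery of abscission to the midbody, had 8.61 and 6.07 at chr10:95255820-95256319, a fold of 2.54 with an FDR of 5.91e-16. That site ended 70 bp before its start, and no other gene was paired with it. Its ChIP level stood high on a chromosome of raised input, and its fold was exceeded by 5.73% of all sites.

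CEP72, a protein of centriolar satellites, had a log2 fold of 2.34 with an FDR of 1.42e-07 in the authors' deposited table. Its ChIP level of 6.67 was close to the median of 6.70 for CEP sites. Its input level of 4.34 was the lowest of the 66 member sites, and the number of reads behind it is not known. CEP350, which anchors microtubules at the centrosome, had 7.53 and 5.63 over its start, a fold of 1.90 with an FDR of 1.03e-07. CEP76, which limits centriole duplication, had 6.36 and 4.60 at a site 964 bp upstream, a fold of 1.76 with an FDR of 1.9e-05.

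CEP192, the scaffold that brings mitotic and centriole kinases to the centrosome, had sites on both sides of its start with a gap of 181 bp. Upstream the ChIP level was 6.83 and the input level 5.54 (log2 fold 1.29, FDR 0.000143), and inside they were 6.62 and 5.00 (1.61, FDR 1.33e-05). The upstream site had both the higher ChIP and the higher input level, and the smaller fold. CEP76 and CEP192 lie on chromosome 18, where the median input of all sites was 5.17.

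CEP85, a regulator of centriole assembly, had 3 sites. The one over its start, 983 bp long, had a ChIP level of 7.35 and an input level of 6.29, a log2 fold of 1.06. A site 40444 bp inside the gene had 7.64 and 5.62 (2.01, FDR 6.09e-11). The last, 747 bp past the end, had 7.01 and 5.14 (1.88, FDR 1.34e-07) and lay 379 bp inside SH3BGRL3, on the same strand. The start site was thus the weakest of this gene by fold. Its ChIP level was between those of the others, which are 500 bp long. No level was adjusted for length here, so this order of levels may not be like for like.

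Of the CEP genes with weaker sites, CEP57L1 had 1.54 over its start, at a site 260 bp from SESN1 on the other strand, and 0.92 deep inside. CEP95 had 1.39 just inside its start. CEP135, a protein of the centriole's cartwheel, had a log2 fold of 1.21 (ChIP 6.11, input 4.90) on chromosome 4, where the median input was 4.51. CEP41 and CEP290, both linked to Joubert syndrome and the cilium, had 1.20 and 1.13. CEP19, a protein of the mother centriole, had 1.18 and CEP120, which lengthens centrioles, 1.04. CEP70 had 1.03 over its start and 0.72 over its end. CEP85L had 0.93, CEP57 0.91, CEP68, another centrosome linker, 0.81, and CEP89, a distal appendage protein, 0.74. CEP112 had 0.72, with an FDR of 0.0481, at a site 407077 bp from its start. The pseudogene CEP164P1 had 1.06 on chromosome 10, with a ChIP level of 7.06. How reads were divided between CEP164P1 and CEP164 is uncertain. CEP15 (1.73, at its start), CEP295 (1.79, inside, 716 bp from its end) and CEP162 (0.87 and 0.88), listed under older names, are not in the counts of sites.

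Set side by side, the kinesin sites had the lower median fold. The median log2 fold was 1.02 at 36 KIF sites (quartiles 0.83 and 1.22) and 1.19 at 30 CEP sites (1.03 and 1.72), against 1.15 over all sites. The difference, KIF minus CEP, was -0.17 on the log2 scale, and the ranges overlapped from 0.72 to 3.47. A log2 fold of 1 or more was found at 19 KIF sites (52.8%) and at 23 CEP sites (76.7%), where the share of all sites was 66.9%. A log2 fold of 2 or more was found at 2 KIF sites (5.56%) and 5 CEP sites (16.7%), against 10.9%. An FDR under 0.01 was held by 23 KIF (63.9%) and 24 CEP sites (80.0%), against 74.0%. The KIF shares were below and the CEP shares above those of all sites on these 3 measures. Counted by gene, the order against the background differed. The median log2 fold of the strongest site was 1.15 for 23 KIF and 1.21 for 23 CEP genes. Both were below the 1.31 of 8855 coding genes with a site. The difference between the families was not tested, and sites within a gene are not replicates.

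The levels of the families overlapped. The median ChIP level was 6.60 at KIF sites (quartiles 6.34 and 6.76) and 6.70 at CEP sites (6.31 and 7.05), and 6.60 at all sites. The median input level was 5.48 at KIF sites (5.16 and 5.68) and 5.56 at CEP sites (5.18 and 5.69), and 5.42 at all sites. At promoters the KIF median was lower in ChIP level, 6.61 against 6.83, and in input level, 5.47 against 5.61. Away from the start the ChIP medians were 6.50 and 6.52 and the input medians 5.48 and 5.53.

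**Figure D3:**
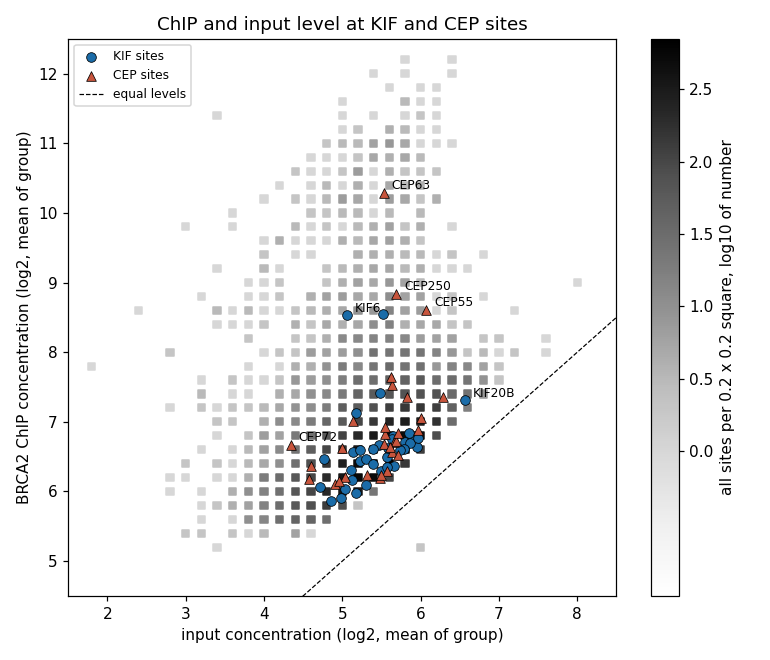
BRCA2 ChIP level against input level on the log2 scale, each the mean of its group, at KIF sites (circles) and CEP sites (triangles), over all sites in grey. Most members lie near a ChIP level of 6.6, and CEP63 stands highest, at 10.29; CEP72 has the lowest input, 4.34, and KIF20B the highest, 6.56.

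By position, KIF sites lay more often inside genes and CEP sites more often at starts. Of 36 KIF sites, 17 (47.2%) were inside the gene, 9 over the start, 9 upstream and 1 over the end. Of 30 CEP sites, 9 (30.0%) were inside, 11 (36.7%) over the start, 7 (23.3%) upstream, 2 downstream and 1 over the end. Among 13801 rows of coding genes the shares were 51.4% inside, 22.3% over the start and 18.9% upstream. A site over the start or within 1 kb of it made up 15 of 36 KIF sites (41.7%, 95% Wilson interval 27.1 to 57.8) and 19 of 30 CEP sites (63.3%, 45.5 to 78.1), against 35.6% of coding gene rows. The 2 intervals overlap, and they cover counting error only.

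Distances gave the same order. The median listed distance to the start was 3070 bp for KIF sites and 562 bp for CEP sites, against 7556 bp for coding gene rows. With only sites inside the gene or over its start or end, the KIF median was 14616 bp and the CEP median 464 bp. A distance over 10 kb was found for 15 KIF sites (41.7%) and 8 CEP sites (26.7%), and 46.5% of coding gene rows. The median of the shortest distance to either end of the gene was 1526.5 bp for KIF and 164.5 bp for CEP. Inside sites of KIF genes had a median distance of 43390 bp and those of CEP genes 8597 bp. Kinesin genes had 2 or more sites in 10 of 23 cases (43.5%) and CEP genes in 6 of 23 (26.1%), against 33.1% of coding genes with a site.

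The fold differed with position in both families, as it did over coding genes at large. At starts the median log2 fold was 1.12 over 15 KIF sites and 1.29 over 19 CEP sites, and elsewhere 0.93 over 21 KIF and 1.06 over 11 CEP sites. Over all sites paired with coding genes the medians were 1.27 at starts and 1.14 elsewhere. None of the 15 KIF start sites reached a log2 fold of 2, and 4 of the 19 CEP start sites did (CEP63, CEP250, CEP55 and CEP72), as did 14.6% of coding promoter sites. The KIF median was below the CEP median in both positions. The strongest site was at the start in 13 of 23 KIF and 16 of 23 CEP genes. Only 1 site was listed for 13 KIF and 17 CEP genes, so in these it was the strongest by default. The share over all coding genes was not computed.

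Start sites lay on both sides of the start. The centres of 10 of 15 KIF sites and 12 of 19 CEP sites were upstream, with medians of -74 and -139 bp from the listed start. The share over all coding promoter sites was not computed, so no lean particular to these families can be read from this. By the listed distance, a second start on the other strand lay within 1 kb of 6 of the 15 KIF sites. Among CEP sites it was 10 of 19 (52.6%), and among coding promoter rows 39.0%. The kinesins in this class were KIF3B, KIF9, KIF15, KIF18A, KIF18B and KIF20A, the last sharing its site with BRD8, a bromodomain protein gene. CEP genes in it included CEP57, CEP57L1, CEP72, CEP89, CEP192 (at both sites), CEP250, CEP290 and CEP350. By the nearer edge, the start sites of CEP63 and KIF23 also lay within 1 kb of a start on the other strand. These starts, of ANAPC13 (599 bp) and RP11-253M7.1 (591 bp), are not in the counts above. A site near 2 such starts cannot be assigned to 1 of its 2 genes.

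**Figure D4:**
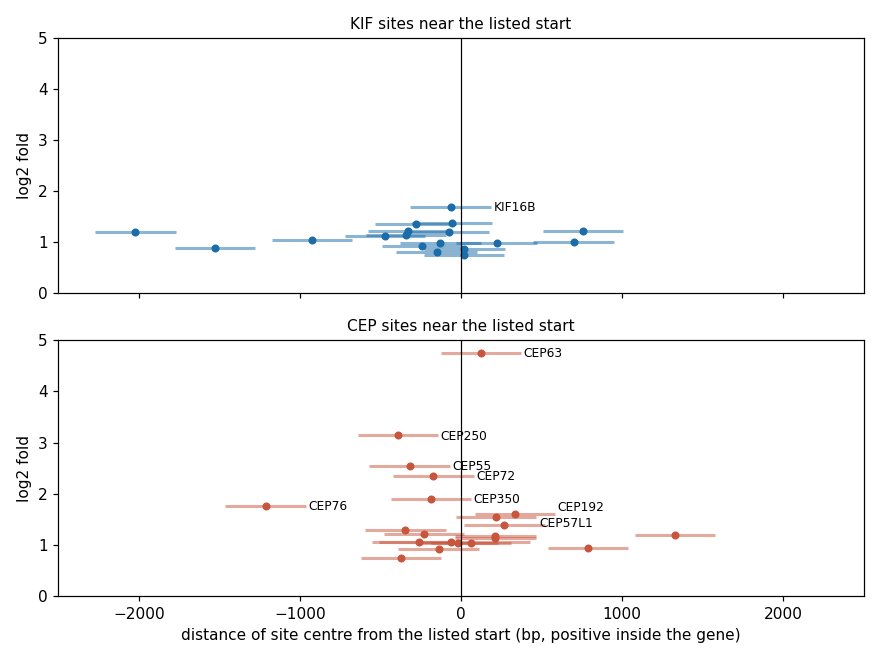
Log2 fold of BRCA2 ChIP over input at sites near the listed start, against the distance of the site's centre from it in bp (positive inside the gene), for KIF (top) and CEP genes (bottom). Bars show the length of each site. The KIF start sites stay at or below 1.69, and CEP63, CEP250, CEP55 and CEP72 stand above 2.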

How the data were processed

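ChIP-seq libraries from hTert-HME1 cells were analysed as deposited. Per the submitters' processing notes, hg19 was used with DiffBind, MACS2, Bowtie 1.1.1, Picard 1.92, SAMtools and cutadapt 1.8.1, with no order or settings. The scaling is not given in the sources used here. Per the file headers, the authors' table gives mean log2 concentrations per group, a log2 fold (ChIP minus input, within 0.01 of the difference of the levels) and an FDR (a q-value). The distances are also the authors'. Starts were turned to count from 1.

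Members and lists were chosen with earlier results of these data known. The 15131 sites fill 23317 rows, of which 13801 matched a coding gene of GRCh38.p14 by Entrez ID, then symbol. A promoter site overlapped the listed start or lay within 1 kb of it by the listed distance. The rule was to give full values for the 10 genes per family with the largest fold, genes with several sites and the smallest folds. Some of these are given without levels or FDR, among them KIF2A, KIF3C, CEP57L1 and CEP70. Other members, and all genes without a site, are named in addition to that rule. Counts and medians were made with Python 3.11.15, pandas 2.3.3 and scipy 1.17.1, and position rules were tested on simulated data. No test beyond the authors' own was run. A CEP member that enters the counts is not reported here by name.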

Additional observations from a re-analysis of the deposited data

How the results depend on the processing

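No paired analysis was possible because the table gives group means with no value per library, and for the same reason no replicate could be left out. The 12 results (6 for each family) were recomputed under 57 alternatives. Of 14 for counts, shares and distances, 12 stayed within 1.5 times (counts and distances) or inside the Wilson interval (shares). The 43 for medians of fold and level have no measure of their own error, so their ranges are given. With only sites of a log2 fold of at least 1, KIF genes with a site numbered 15 and not 23. With only sites overlapping the gene, the median distance to the start of KIF sites was 14616 bp and not 3070 bp, since upstream sites were left out. Alternatives chosen after seeing the data were those on the own start, on leading sites or genes, on Entrez ID and on CEP164P1. The KIF median log2 fold ran from 0.93 to 1.19 and the CEP median from 1.06 to 1.34, and the KIF value was the lower under each shared alternative. The median ChIP level ran from 6.50 to 6.62 for KIF and from 6.52 to 6.84 for CEP sites, and the median input level from 5.39 to 5.48 and from 5.53 to 5.61. The depth of each library is unknown, so no limit of detection can be given.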
